A study of Mus musculus with 2 samples.

Results

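The 10 genes described here are mouse counterparts of genes that lie in or near regions linked to type 1 diabetes in humans or in NOD mice: Ptpn22, Ptpn2, Slc11a1, Cd226, Ifih1, Sh2b3, Tyk2, Cd101, Ubash3a and Clec16a. They were chosen by symbol, not by any value measured here, and each matched 1 of the 32285 genes counted. The levels come from droplet-based single-cell RNA sequencing of live CD45+CD31- leukocytes sorted from hand-picked pancreatic islets of female mice aged 12 weeks. NOD mice develop spontaneous autoimmune diabetes, in which lymphocytes and macrophages enter the islets and insulin-producing cells are lost. There were 2 libraries, 1 from WT NOD mice with no further allele and 1 from mice labelled NOD.Cxcl16-/-, which lack the chemokine CXCL16 according to their label. The sex, age, sort and NOD background are shared by both, no agent was given to either according to the labels, and the number of mice per library is not given in the sources used here. The question asked of the data was in which islet leukocytes each gene is used.

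The genes act at several steps of an immune response. PTPN22 and UBASH3A are phosphatases or phosphatase-like proteins that restrain signals from the T-cell antigen receptor, and PTPN2 removes phosphate from JAK kinases and STAT proteins downstream of cytokine receptors. CD226 (DNAM-1) is a costimulatory receptor of T and NK cells, and CD101 is an immunoglobulin-family receptor with inhibitory activity. TYK2 is a JAK kinase used by type I interferon and interleukin-12-family receptors, SH2B3 (LNK) is an adaptor that dampens cytokine receptor signals, IFIH1 (MDA5) is a cytosolic sensor of double-stranded RNA, SLC11A1 (NRAMP1) moves divalent metal ions out of the phagosome, and CLEC16A takes part in endolysosomal traffic and mitophagy.

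The WT NOD library held 13859 barcodes and the other 10554, of which 10706 and 9284 were kept, with medians of 3853 and 4881.5 UMIs per cell. A UMI is 1 tagged RNA molecule, and a level is given as CPM, the UMIs of a gene per 1000000 UMIs of all genes in a class, with a 95% interval that covers counting error only. With 1 library per group nothing between the libraries has a replicate check, and no p-value is given. Over all barcodes Cxcl16 stood at 103 CPM in WT NOD and 102 CPM in the second library. The level was lower in the second library but far from 0 in macrophages (816 and 498 CPM), migratory DCs (624 and 374) and cDC1 (368 and 282). The intervals of these were separate. Cfp-positive myeloid cells held 286 and 259 CPM, with overlapping intervals. It was higher in the second library, with separate intervals, in B cells (8.97 and 15.4 CPM), plasma cells (3.90 and 49.0) and Tregs (2.42 and 11.1). The same held over all kept cells (73.1 and 95.1 CPM). Cxcl16 RNA was thus present in both libraries, and CXCL16 protein was not measured here. The reason for this RNA under the second label was not tested. That library is therefore called the library labelled NOD.Cxcl16-/-, and no direction is attributed to the genotype. The libraries shared 45 cell barcodes, 31 of them among kept cells, and shared barcodes were left in. Cells were put into classes by gates on marker UMIs. The classes described had at least 50 cells in both libraries (cells in the WT NOD library first): CD8 T with 2497 and 1500, CD4 T with 1285 and 1311, Treg (Foxp3-positive T) with 263 and 422, gamma-delta T with 137 and 119, NK with 62 and 62, B with 1755 and 2063, plasma cell with 52 and 98, macrophage with 86 and 229, Cfp-positive myeloid with 220 and 260, type 1 conventional dendritic cell (cDC1) with 55 and 92, and migratory dendritic cell (DC) with 97 and 163.

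A gate is a range of marker counts, and some cells lay near its edge. In the CD8 T gate 59 and 23 cells had only the minimum number of T-cell markers. Only the minimum of their own markers was found in 18 and 44 macrophages, 24 and 19 NK cells and 46 and 89 migratory DCs. The Cfp-positive myeloid gate rests on Cfp alone, and 66 and 58 of its cells held a single Cfp UMI. The median cell of the macrophage gate carried 32 and 87 UMIs of the 6 macrophage markers and 0 of the T and B markers. The median cell of the NK gate carried 3 and 3.5 UMIs of the T markers, since Trbc1, Trbc2 and Cd3g were allowed there. The Cfp-positive myeloid class is called by its rule, a Cfp UMI with no other lineage gate, and is given no cell type name. Gates left out 4101 and 2794 kept cells. Of these, 2758 and 1832 had T-cell markers but no Cd4 or Cd8 UMI, or markers in conflict, such as Cd4 with Cd8. A further 1008 and 699 held markers of a second lineage. These ungated cells held between 25.05% (Cd101) and 42.9% (Slc11a1) of each gene's UMIs in WT NOD and between 26.4% (Sh2b3) and 50.8% (Slc11a1) in the other.

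By lineage, 4 of the 10 genes were highest in T and NK cells of both libraries (Ptpn22, Ptpn2, Cd226 and Ubash3a), 3 in myeloid cells (Slc11a1, Ifih1 and Cd101) and 1 in B-lineage cells (Sh2b3), while the leading lineage of Tyk2 and Clec16a differed between libraries. Over all 10785 genes with at least 100 UMIs in the gated cells of each library, 49.8% were highest in T and NK cells, 22.3% in myeloid cells and 8.9% in B-lineage cells of both. The class with the highest level was the same in both libraries for 8 of the 10 genes, against 49.4% of all genes. It stood at least 4-fold above the median class in both libraries for 5 of the 10 (Ptpn22, Slc11a1, Cd226, Ifih1 and Ubash3a), against 14.0% of all genes, and at least 2-fold above it for 8, against 35.5%. The ratio was taken with 1 CPM added. Slc11a1, with 67 UMIs in the described classes of WT NOD, is under the 100 UMIs asked of the background genes. These shares describe a list of 10 genes chosen for their disease link, and 10 genes are too few to read a difference from the background.

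**Figure D1:**
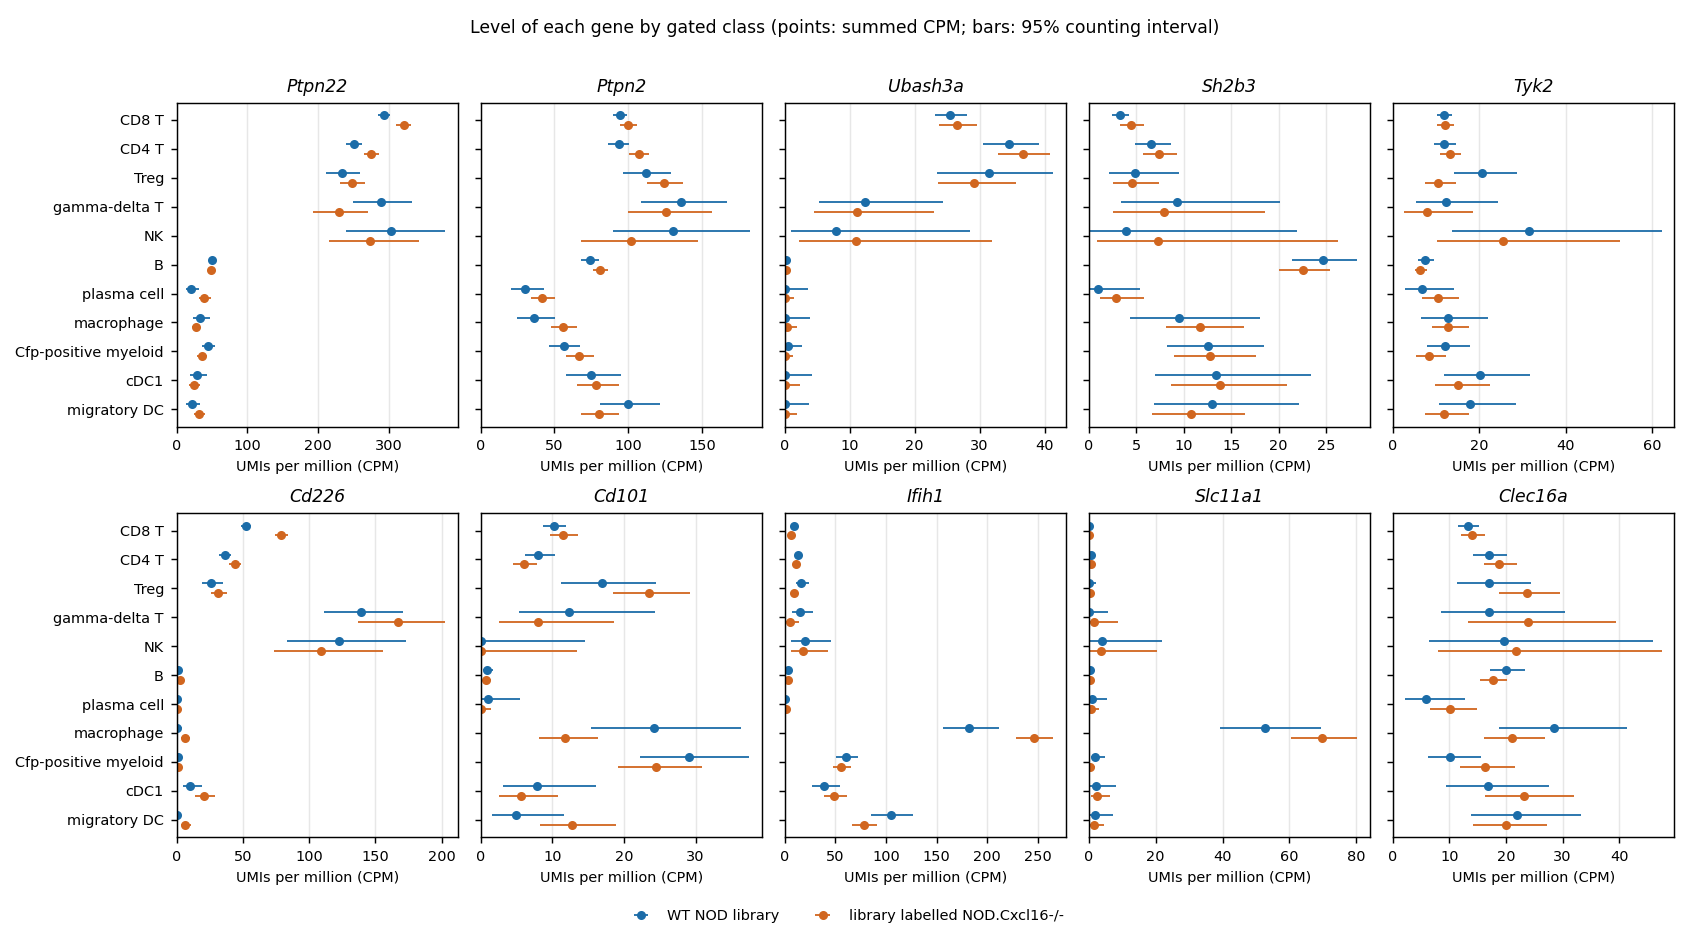
Level of each of the 10 genes (horizontal axis, CPM of the class, linear, a separate scale for each gene) in the 11 gated classes (vertical axis), with blue points for the WT NOD library, orange points for the library labelled NOD.Cxcl16-/- and bars for the 95% counting interval. Ptpn22, Ubash3a and Cd226 stand to the right in T and NK classes, Ifih1 and Slc11a1 in the macrophage gate (246 and 69.9 CPM in the library labelled NOD.Cxcl16-/-) and Sh2b3 in B cells (24.7 and 22.6 CPM).

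Ptpn22 (ENSMUSG00000027843; GRCm38 chr3:103859795-103912247, plus strand) separated lymphocytes of the T and NK lineage from all other leukocytes. In the WT NOD library it stood at 293 CPM (285 to 302) in CD8 T, 250 CPM (239 to 262) in CD4 T, 234 CPM (211 to 259) in Treg, 288 CPM (249 to 333) in gamma-delta T and 304 CPM (240 to 379) in NK cells. In the library labelled NOD.Cxcl16-/- the same classes stood at 321 CPM (311 to 331), 275 CPM (264 to 286), 248 CPM (231 to 266), 229 CPM (193 to 270) and 273 CPM (215 to 342). The gene shares its span with the transcripts Gm15472 and Gm43065 on the same strand and Gm15602 on the other, and reads of these could be counted apart from it. CD8 T cells were above CD4 T cells and Tregs with separate intervals in both libraries, and the intervals of every other pair of these 5 classes overlapped in at least 1 library. B cells followed at 50.3 CPM (45.6 to 55.3) and 48.2 CPM (44.4 to 52.3), separate from every T and NK class in both libraries. The other classes lay between 20.5 and 44.1 CPM in WT NOD and between 24.5 and 39.4 CPM in the other. Over all T and NK cells the level was 277 and 292 CPM, against 32.2 and 32.0 CPM over all myeloid cells.

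Within the CD8 T and CD4 T gates Ptpn22 was lower in cells with a UMI of Mki67 or Top2a, genes of dividing cells. CD8 T cells with such a UMI held 266 CPM (255 to 278) in WT NOD and 280.5 CPM (267 to 294) in the other, and those without one held 320.2 CPM (308 to 333) and 359 CPM (344 to 374). CD4 T cells went the same way, at 207 and 227 CPM with such a UMI and 273 and 309.6 CPM without. The intervals of the 2 subsets were separate in both gates of both libraries. Tregs held 217 and 228 CPM with such a UMI and 247 and 270.4 CPM without, with overlapping intervals. Cells with a Mki67 or Top2a UMI had more UMIs (medians 7691 and 10695.5 against 4073 and 5043 in the CD8 T gate), and the part of depth in the split was not tested.

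Ubash3a (ENSMUSG00000042345; chr17:31207873-31246892, plus strand), which encodes the TCR-signal suppressor STS-2, was found in T and NK cells, with at most 2 UMIs in any other class. CD4 T cells held 34.6 CPM (30.5 to 39.1) and 36.7 CPM (32.9 to 40.9), Tregs 31.5 CPM (23.5 to 41.3) and 29.2 CPM (23.7 to 35.6), and CD8 T cells 25.5 CPM (23.1 to 28.1) and 26.5 CPM (23.7 to 29.6). CD4 T cells exceeded CD8 T cells with separate intervals in both libraries. Gamma-delta T cells held 12.3 CPM (5.33 to 24.3) and 11.1 CPM (4.48 to 23.0), and NK cells held 7.89 CPM (0.955 to 28.5) and 10.9 CPM (2.25 to 31.9) from 2 and 3 UMIs. B cells held 2 UMIs in each library, 0.236 and 0.166 CPM. No UMI was counted in cDC1, migratory DC or plasma cells of either library, and the 0 counts in cDC1 allow up to 3.35 and 1.88 CPM. In CD8 T cells with a Mki67 or Top2a UMI the level was 28.2 CPM (24.6 to 32.1) and 26.7 CPM (22.7 to 31.2), and in those without one 22.8 CPM (19.7 to 26.4) and 26.4 CPM (22.5 to 30.7), with overlapping intervals.

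Ptpn2 (ENSMUSG00000024539; chr18:67665511-67724595, minus strand) was used in every class. The highest level was in gamma-delta T cells, at 136 CPM (109 to 167) and 126 CPM (99.6 to 157), which was only 1.45 and 1.55 times the median class after 1 CPM was added to both. CD8 T cells held 94.6 and 100.1 CPM, CD4 T cells 93.5 and 107 CPM, B cells 74.0 and 80.9 CPM, and macrophages 35.8 CPM (24.8 to 50.1) and 55.8 CPM (47.5 to 65.0). Plasma cells were lowest, at 30.2 CPM (20.6 to 42.9) and 41.8 CPM (34.2 to 50.7). The total behind CPM in plasma cells includes immunoglobulin RNA, and the part of this in the low levels of that class was not tested. CD8 T and CD4 T cells were above B cells, and B cells above macrophages, with separate intervals in both libraries. With all 11 classes in order of level, the intervals of each neighbouring pair overlapped in at least 1 library.

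Of 10 other genes that shape antigen receptor signals (Csk, Pag1, Lck, Zap70, Ptpn6, Ptprc, Ubash3b, Cbl, Cblb and Dgka), 7 were highest in T and NK cells of both libraries, 1 in B-lineage cells and 1 in myeloid cells. The shares of all genes were 49.8%, 8.9% and 22.3%. Ubash3b, the close relative of Ubash3a, was not confined to T cells: its highest class was Treg, at 102 and 109 CPM, and its median class held 47.3 and 47.5 CPM, while the median class of Ubash3a held 0.485 and 0.344 CPM. Zap70, the kinase that binds the activated T-cell receptor complex, peaked in CD4 T cells at 112 CPM in WT NOD and in Tregs at 118 CPM in the other. Csk, the kinase that partners with PTPN22 in restraining LCK, was highest in B cells of both libraries, at 184 and 167 CPM.

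Cd226 (ENSMUSG00000034028; chr18:89176967-89272229, plus strand) was graded among T and NK cells. Gamma-delta T cells stood at 139 CPM (112 to 171) and 167 CPM (137 to 202) and NK cells at 122 CPM (83.1 to 174) and 109 CPM (73.7 to 156), with overlapping intervals. CD8 T cells followed at 52.2 CPM (48.7 to 55.9) and 79.0 CPM (74.1 to 84.2), and CD4 T cells at 36.5 CPM (32.3 to 41.2) and 43.8 CPM (39.7 to 48.4), which was separate from CD8 T cells in both libraries. Tregs held 26.0 CPM (18.8 to 35.1) and 31.6 CPM (25.8 to 38.2). In cDC1 the level was 10.1 CPM (4.60 to 19.1) and 20.7 CPM (14.3 to 29.1), from 9 and 33 UMIs, and B cells held 1.42 and 2.32 CPM. Macrophages held 0 UMIs in the WT NOD library, which allows up to 3.16 CPM, and 18 UMIs (6.20 CPM) in the other.

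Among 6 genes of the CD226 axis, 4 were highest in T and NK cells and 2 in myeloid cells of both libraries. The shares of all genes were 49.8% and 22.3%. TIGIT and CD96 compete with CD226 for its ligands. Tigit peaked in Tregs, at 90.2 and 97.4 CPM, and Cd96 in gamma-delta T cells, at 71.0 and 65.3 CPM. Of the ligand genes, Pvr was highest in migratory DCs, at 30.9 and 32.3 CPM, and Nectin2 in macrophages, at 6.32 and 7.23 CPM. The receptor genes and the ligand genes thus had their highest level in different lineages of the same islets.

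Cd101 (ENSMUSG00000086564; chr3:100993529-101029556, minus strand) had its highest levels, of the classes described, in Cfp-positive myeloid cells, in Tregs and, in WT NOD, in macrophages. Cfp-positive myeloid cells held 29.1 CPM (22.2 to 37.4) and 24.5 CPM (19.1 to 30.9), and Tregs held 16.9 CPM (11.3 to 24.5) and 23.5 CPM (18.5 to 29.3). Macrophages held 24.2 CPM (15.4 to 36.4) in WT NOD and 11.7 CPM (8.10 to 16.4) in the other. Type 2 conventional dendritic cells (cDC2), with 17 and 65 cells, were too few to be described and were looked at after the other values were seen. They held 51.2 CPM (24.5 to 94.1) from 10 UMIs and 45.7 CPM (32.3 to 62.7) from 38 UMIs. In the library labelled NOD.Cxcl16-/- this was above Cfp-positive myeloid cells and Tregs with separate intervals. CD8 T cells held 10.2 CPM (8.74 to 11.9) and 11.5 CPM (9.67 to 13.6), and CD4 T cells 8.07 and 6.03 CPM. Not all myeloid classes were high: cDC1 held 7.82 and 5.65 CPM and migratory DCs 4.99 and 12.8 CPM. B cells, at 0.826 CPM (0.332 to 1.70) and 0.745 CPM (0.341 to 1.41), were below every T-cell class and cDC1 with separate intervals, but not below migratory DCs of the WT NOD library, at 4.99 CPM (1.62 to 11.6). NK cells had no UMI in either library, which allows up to 11.8 and 10.9 CPM, so a level in NK cells like that of CD4 T cells was not detectable at this depth in either library, nor one like that of CD8 T cells in WT NOD.

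Tyk2 (ENSMUSG00000032175; chr9:21104068-21131243, minus strand) was low in every class. NK cells ranked first, at 31.5 CPM (13.6 to 62.2) and 25.5 CPM (10.2 to 52.5), from 8 and 7 UMIs, which was 2.44 and 2.07 times the median class. Of the other 10 classes, 2 lay below NK with separate intervals in WT NOD and 1 in the other. CD8 T cells stood at 11.8 CPM (10.2 to 13.6) and 12.0 CPM (10.1 to 14.1), CD4 T cells at 11.8 and 13.3 CPM, macrophages at 12.6 and 12.7 CPM and B cells at 7.43 CPM (5.71 to 9.51) and 6.37 CPM (5.03 to 7.96). B cells were below CD8 T cells with separate intervals in both libraries, while the intervals of B and CD4 T cells overlapped for WT NOD (9.40 to 14.5 CPM in CD4 T cells). The largest gap between libraries was in Tregs, at 20.6 CPM (14.3 to 28.8) and 10.5 CPM (7.33 to 14.6).

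The 11 other genes of JAK kinases and interferon receptors were split, 5 highest in T and NK cells and 4 in myeloid cells of both libraries. The shares of all genes were 49.8% and 22.3%. Jak1 peaked in NK cells, at 919 and 750 CPM, and Jak2 in migratory DCs, at 481 and 467 CPM. Il12rb2, a chain of the interleukin-12 receptor that TYK2 serves, peaked in NK cells, at 189 and 200.1 CPM, the class that also ranked first for Tyk2. Ifnar2, a chain of the type I interferon receptor that signals through the same kinase, peaked in macrophages, at 283 and 274 CPM.

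Sh2b3 (ENSMUSG00000042594; chr5:121815488-121837646, minus strand) was highest in B cells among the classes described. Its span overlaps Atxn2 and 1700008B11Rik on the other strand and Mir7031 on its own. B cells held 24.7 CPM (21.4 to 28.2) and 22.6 CPM (19.99 to 25.4), and plasma cells 0.976 CPM (0.0247 to 5.44) and 2.81 CPM (1.13 to 5.80). The drop from B cells to plasma cells was larger than the counting error in both libraries. The part in it of immunoglobulin RNA, which is in the plasma-cell total, was not tested. CD8 T cells held 3.25 and 4.43 CPM and CD4 T cells 6.56 and 7.34 CPM. The 4 myeloid and dendritic classes lay between, at 9.48 to 13.4 CPM and 10.8 to 13.8 CPM. In plasmacytoid dendritic cells, a class of 48 and 45 cells that fell just under the minimum size and was singled out after its values were seen, Sh2b3 stood at 40.1 CPM (21.9 to 67.4) and 22.5 CPM (10.8 to 41.4), from 14 and 10 UMIs. Sh2b2, another adaptor of this family, was also highest in B cells of both libraries, at 10.9 and 17.5 CPM. The receptor gene Flt3 peaked in migratory DCs, at 167 and 138 CPM, and Kit in Cfp-positive myeloid cells, at 182 and 184 CPM.

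Among the described classes Ifih1 (ENSMUSG00000026896; chr2:62595798-62646255, minus strand) was highest in macrophages, at 182 CPM (156 to 212) and 246 CPM (228 to 265). Migratory DCs came next, at 105 CPM (85.7 to 127) and 77.8 CPM (66.0 to 91.2), then Cfp-positive myeloid cells at 60.6 CPM (50.4 to 72.2) and 55.9 CPM (47.6 to 65.2) and cDC1 at 39.1 CPM (27.2 to 54.4) and 49.0 CPM (38.7 to 61.1). Macrophages were separate from migratory DCs, and migratory DCs from Cfp-positive cells, in both libraries. Of the classes too small to be described, cDC2 held 87.0 CPM (50.7 to 139) from 17 UMIs and 137 CPM (113 to 165) from 114 UMIs. The latter was above migratory DCs with separate intervals. Classical monocytes held 128 CPM (58.6 to 243) from 9 UMIs and 244 CPM (162 to 353) from 28 UMIs, which overlapped macrophages. Both were looked at after the other values were seen. T and NK classes lay between 8.81 and 19.7 CPM in WT NOD and between 4.78 and 18.2 CPM in the other. B cells held 3.19 and 3.06 CPM, and plasma cells 0 and 4 UMIs. In CD8 T cells the level was 5.18 CPM (3.72 to 7.03) and 2.70 CPM (1.54 to 4.39) with a Mki67 or Top2a UMI and 12.3 CPM (10.0 to 15.0) and 9.10 CPM (6.90 to 11.8) without, with separate intervals in both libraries.

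Among 7 genes of RNA sensing, 3 were highest in myeloid cells of both libraries, 1 in T and NK cells and 1 in B-lineage cells. The shares of all genes were 22.3%, 49.8% and 8.9%. Dhx58 (LGP2), a relative of MDA5 that modulates its signal, peaked in macrophages like Ifih1, at 35.8 and 30.6 CPM. Ddx58 (RIG-I), the other sensor of this family, peaked in gamma-delta T cells at 41.6 CPM in WT NOD and in NK cells at 36.4 CPM in the other. Tlr3, the endosomal sensor of double-stranded RNA, peaked in cDC1, at 48.1 and 48.3 CPM.

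Among the described classes Slc11a1 (ENSMUSG00000026177; chr1:74375195-74386062, plus strand) stood out in the macrophage gate, at 52.7 CPM (39.1 to 69.4) from 50 UMIs and 69.9 CPM (60.6 to 80.2) from 203 UMIs. No other described class passed 3.94 CPM in either library. The next class, NK, rested on 1 UMI in each. Cfp-positive myeloid cells held 4 UMIs and 1 UMI, and migratory DCs 2 and 3. Classical monocytes, too few to be described (9 and 10 cells) and looked at after the other values were seen, held 157 CPM (78.2 to 280.2) from 11 UMIs in 5 cells and 52.3 CPM (19.2 to 114) from 6 UMIs in 4 cells, so the gene was not limited to the macrophage gate. Macrophages made up 0.803% and 2.47% of the kept cells and held 35.7% and 42.5% of all Slc11a1 UMIs, and most of the remainder was in ungated cells. The summed CPM of 5 islet hormone genes was 9087 and 8458 in the macrophage gate against 96.3 and 127 in B cells. The part of this RNA in the macrophage levels was not tested. Among 6 genes of the phagosome and of iron transport, of which 5 had enough UMIs, 4 were highest in myeloid cells of both libraries. The share of all genes was 22.3%. Cybb, the catalytic subunit of the phagocyte oxidase, peaked in macrophages at 734 and 737 CPM, and Hmox1, which degrades haem, at 47.4 and 97.4 CPM. Slc11a2, the paralog found on endosomes of most cells, peaked in gamma-delta T cells, at 29.3 and 25.5 CPM.

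Clec16a (ENSMUSG00000068663; chr16:10545339-10744878, plus strand) was nearly even over leukocytes. Its highest class was macrophage in the WT NOD library, at 28.4 CPM (18.7 to 41.4), and gamma-delta T in the other, at 23.9 CPM (13.4 to 39.4), which was 1.64 and 1.19 times the median class. Of the other 10 classes, 3 lay below the leading one with separate intervals in WT NOD and 0 in the other. B cells held 20.1 CPM (17.2 to 23.3) and 17.7 CPM (15.4 to 20.2), CD8 T cells 13.2 CPM (11.5 to 15.2) and 14.0 CPM (12.0 to 16.3), and plasma cells 5.85 and 10.0 CPM. Of the genes beside it on chromosome 16, Ciita, the master switch of MHC class II genes, peaked in Cfp-positive myeloid cells at 196 and 167 CPM, with a median class at 9.02 and 25.5 CPM. Socs1, an inhibitor of JAK kinases, peaked in gamma-delta T cells at 191 and 229 CPM, with a median class at 102 and 109 CPM.

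Upstream sequence was searched for short motifs of factors that act in these lineages, as a description of letters only. RefSeq starts on GRCm38.p6 gave 9 stretches of 250 bases before a transcription start for 8 of the 10 genes, with 2 starts for Ptpn22. On both strands, the core of an interferon-stimulated response element (GAAA, any 2 bases, GAAA) was found in 0 of the 8 genes, Ifih1 included, and in 2.98% of 32841 promoters. GAGGAAG (a core bound by the ETS factor PU.1) was found in 4 of the 8 (Ptpn22, Ifih1, Cd101 and Clec16a), and in 10.6% of all promoters. TGTGGT (a RUNX core) was found in 2 of the 8 (Ptpn22 and Cd101), and in 14.0% of all promoters. No match overlapped a match of another motif, and the motifs were chosen with the levels known. The stretches of Ptpn22, the gene with a step between lineages, and of Cd101, the gene with high levels both in Cfp-positive myeloid cells and in Tregs, are shown 5′ to 3′ on the gene's strand. Capitals mark the motif, which reads on the opposite strand in each.
Ptpn22 first start, chr3:103859775-103859794, GAGGAAG: agtggactttgCTTCCTCta
Ptpn22 second start, chr3:103860100-103860129, TGTGGT: tgagctaagcagACCACAgtttgtgttctg
Ptpn22 second start, chr3:103860217-103860246, TGTGGT: ctttgttgtgtgACCACAgaagctagtttt
Cd101, chr3:101029736-101029764, GAGGAAG: ttctgaaattcCTTCCTCtttaggcagga
Cd101, chr3:101029579-101029607, TGTGGT then GAGGAAG: tgaaaACCACAccatagCTTCCTCtttac
In Cd101 a RUNX core and an ETS core lie within 54 to 26 bases before the start. A match says nothing of whether a factor binds there, and the libraries read the 3' end of transcripts, so they do not show which Ptpn22 start was used.

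The share of cells with a UMI was compared at equal depth. Each cell was thinned to 2000 UMIs, and shallower cells were left out (546 and 86 in the CD8 T gate, 169 and 91 in the B gate). A Ptpn22 UMI was then present in 45.0% (42.8 to 47.2) and 48.9% (46.2 to 51.5) of CD8 T cells, against 7.69% (6.43 to 9.12) and 7.81% (6.66 to 9.08) of B cells. Without thinning the shares were 63.3% and 79.1% in CD8 T cells, whose median cell had 4594 and 5542.5 UMIs. In B cells, with medians of 4441 and 4590 UMIs, they were 16.2% and 18.0%. A Cd226 UMI was present in 22.8% (15.9 to 31.1) and 29.9% (21.8 to 39.1) of thinned gamma-delta T cells, with 10 and 2 cells left out, and in 0.315% and 0.456% of thinned B cells. Unthinned, these were 38.7% and 47.9% at 4386 and 4413 UMIs, and 0.684% and 1.16% in B cells.

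For the genes of the macrophage gate the depth gap was wider, at medians of 11519 and 11540 UMIs per cell. After thinning, which left out 8 and 18 cells, an Ifih1 UMI was present in 25.6% (16.4 to 36.8) and 26.5% (20.7 to 33.0) of macrophages, against 58.1% and 51.1% unthinned. B cells gave 0.504% and 0.406% thinned, and 1.14% and 1.60% unthinned. A Slc11a1 UMI was present in 15.4% (8.21 to 25.3) and 12.8% (8.6 to 18.1) of thinned macrophages, against 38.4% and 41.0% unthinned. B cells gave 0.0631% and 0.101% thinned and 0.114% and 0.194% unthinned, so the macrophage shares were above those of B cells by more than the counting error. The intervals of the thinned Ifih1 shares overlapped between libraries, while those of the CPM did not.

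**Figure D2:**
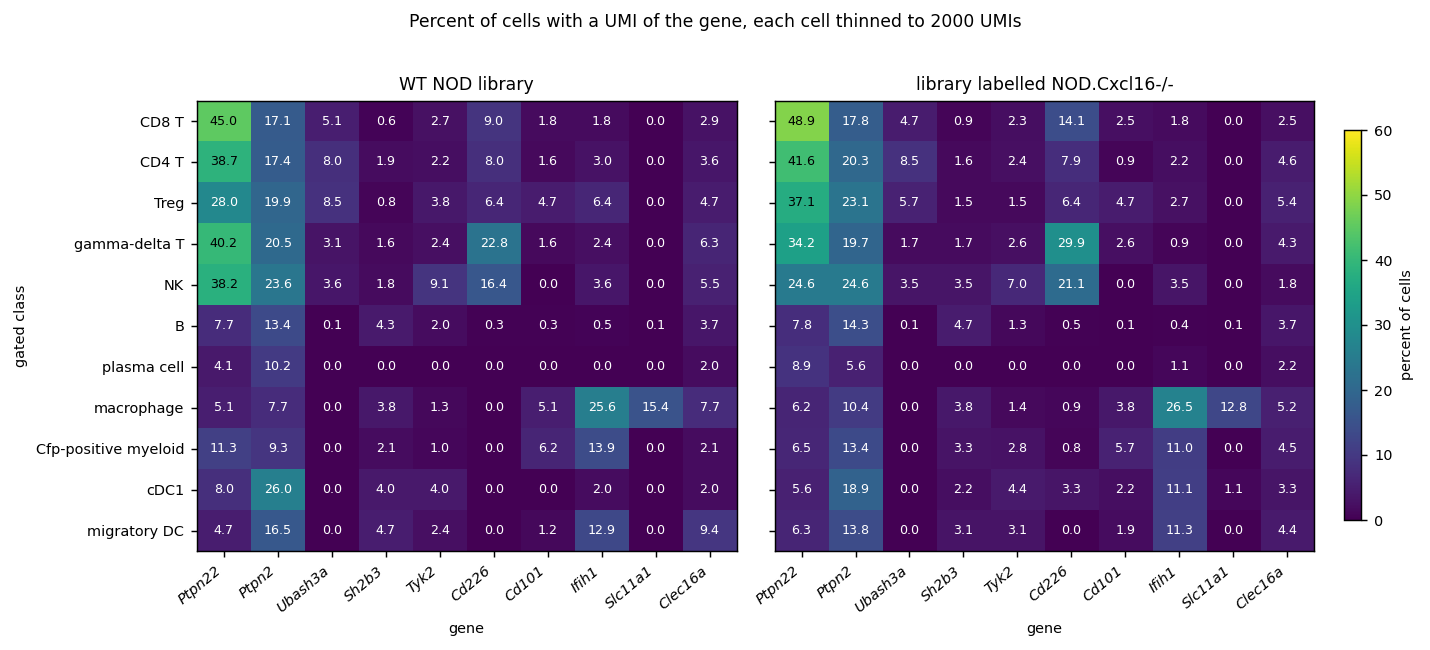
Percent of cells with at least 1 UMI of each gene (columns) in each gated class (rows), with every cell thinned to 2000 UMIs and shallower cells left out. The left panel is the WT NOD library and the right panel the library labelled NOD.Cxcl16-/-, the colour runs from 0 to 60 percent, and the cells of the T and NK rows carry the highest shares for Ptpn22 (45.0 and 48.9 percent in CD8 T cells).

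The libraries were then compared class by class, as the log2 ratio of CPM with 1 CPM added, positive where the library labelled NOD.Cxcl16-/- was higher. Of 110 pairs of gene and class, 73 had at least 25 UMIs over both libraries. Of these, 7 were higher by 1.5-fold or more, against 9.07% of all pairs of gene and class, 3 were lower, against 4.88%, and 63 lay within 1.5-fold. The 7 of 73 and 3 of 73 are close to these background shares. The counting interval of the ratio left out 0 for 13 pairs, 3 of them among the higher and 2 among the lower, which is 13 of 73 beside 21.9% of all pairs. In 4 classes none of the 10 genes passed 1.5-fold: CD4 T (9 tested, against 3.2% of all genes higher and 2.64% lower), B (7 tested, 6.28% and 2.75%), gamma-delta T (4 tested, 11.7% and 6.86%) and NK (3 tested, 9.48% and 8.53%).

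The pair with most UMIs among the higher was Cd226 in CD8 T cells, with 836 and 963 UMIs, at 52.2 and 79.0 CPM and a log2 ratio of 0.59 (0.46 to 0.73). In that gate 3.4% of 11944 genes were higher by 1.5-fold or more and 1.7% lower, and 9 of the 10 genes were tested, with 1 higher and 0 lower. The other 8 ranged from -0.49 for Ifih1 to 0.35 for Sh2b3. The ratio of Cd226 was 0.37 without cells carrying a Mki67 or Top2a UMI, and it was past 1.5-fold in 4 of 12 alternatives. CD8 T cells with a Mki67 or Top2a UMI held 39.1 CPM (34.8 to 43.7) and 73.1 CPM (66.4 to 80.3) of Cd226, and those without one held 65.1 CPM (59.6 to 70.9) and 84.7 CPM (77.6 to 92.2). The intervals of the libraries were separate in both subsets. In CD4 T cells Cd226 moved by 0.26 (0.04 to 0.49), in gamma-delta T cells by 0.27 (-0.22 with classes from clusters) and in Tregs by 0.27. Of the 6 genes of the CD226 axis, 5 could be tested in CD8 T cells, and 0 passed 1.5-fold, with a median of 0.21.

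**Figure D3:**
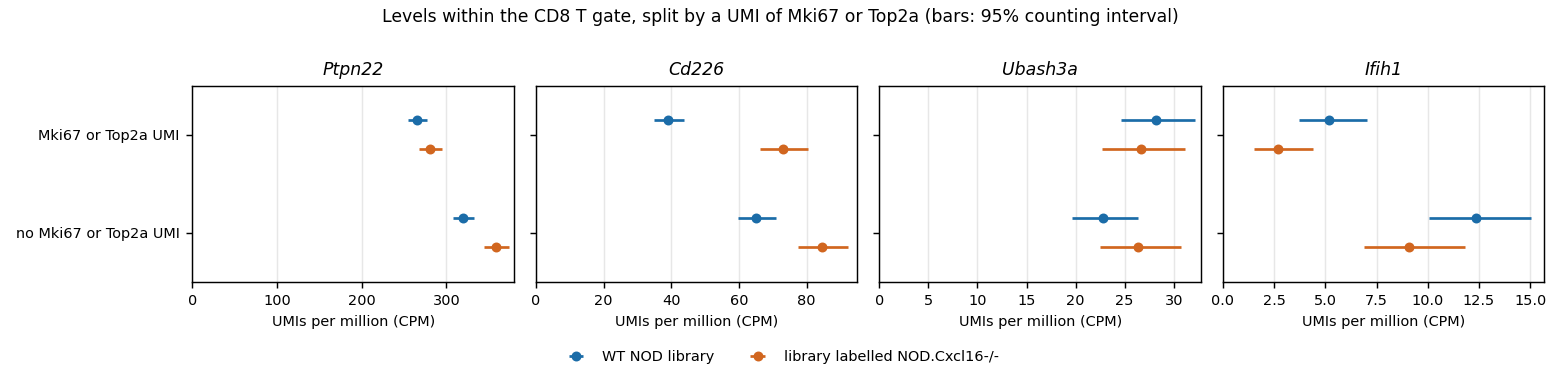
Levels of Ptpn22, Cd226, Ubash3a and Ifih1 (horizontal axis, CPM, linear, a separate scale for each gene) in CD8 T cells split by a UMI of Mki67 or Top2a (rows), with blue for the WT NOD library, orange for the library labelled NOD.Cxcl16-/- and bars for the 95% counting interval. Ptpn22 and Ifih1 lie further right without such a UMI, and of the subsets of Cd226 the libraries stand further apart in cells with one (39.1 and 73.1 CPM).

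In macrophages, where 12.0% of 8428 genes were higher and 7.38% lower, 8 of the 10 genes were tested. Ptpn2 was higher by 0.62 (0.10 to 1.22), which became -0.15 without cells carrying a Mki67 or Top2a UMI. Cd101 was lower by 0.99 on the log2 scale, at 24.2 and 11.7 CPM, with a ratio of -0.99 (-1.86 to -0.22) from 23 and 34 UMIs. It stayed past 1.5-fold in 12 of 12 alternatives, between -1.11 and -0.64. Ifih1 moved by 0.43 (0.19 to 0.68) and Slc11a1 by 0.40 (-0.05 to 0.88), and with classes taken from clusters in place of gates they moved by -0.10 and -0.52. Macrophages with a Mki67 or Top2a UMI held 176 CPM (142 to 215) and 293 CPM (267 to 321) of Ifih1, and those without one 191.2 CPM (151 to 239) and 191.4 CPM (169 to 216), so the libraries were apart in the first subset and not in the second. The macrophage gate held 86 and 229 cells, and the summed level of its 6 marker genes was 9496 and 11536 CPM. Whether the cells caught by the gate differ between libraries in state was not tested.

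In Tregs, where 6.74% of 9235 genes were higher and 4.5% lower, Tyk2 moved by -0.91 (-1.69 to -0.24), from 34 and 35 UMIs, and Ifih1 by -0.71 (-1.55 to 0.03), from 27 and 32 UMIs. Ifih1 was at -0.18 when doublets were kept, and Tyk2 at -0.17 with classes from clusters. Ddx58, the sister sensor, moved by -0.94 in the same cells (32.7 and 16.5 CPM), and Irf7, an interferon-induced transcription factor, by -1.55 (55.7 and 18.3 CPM). Across all classes 11 of 55 pairs of the RNA-sensing list were lower and 4 higher, beside 4.88% and 9.07% of all pairs. Irf7, singled out after its values were seen, made up 7 of the 11, and the other genes had 4 lower and 4 higher of 44. Its log2 ratio was -2.55 in migratory DCs, -2.13 in macrophages (370 and 84.0 CPM), -1.59 in cDC1, -1.55 in Tregs, -1.35 in Cfp-positive myeloid cells, -1.04 in B cells and -0.59 in CD4 T cells, and it was 0.49 in NK cells. Ifih1 itself did not follow in macrophages. Its own ratio was positive in macrophages and cDC1 (0.32) and negative in the other 6 tested classes, though in migratory DCs it went from -0.42 to 0.59 without cells carrying a Mki67 or Top2a UMI.

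The remaining pairs past 1.5-fold rest on few UMIs. In plasma cells, where 33.3% of 6568 genes were higher and 4.89% lower and the median of all genes was 0.35, Ptpn22 was higher by 0.91 (0.25 to 1.70), at 20.5 and 39.4 CPM, and Clec16a by 0.69 (-0.78 without cells carrying a Mki67 or Top2a UMI), so each is to be read beside that shift of all genes. Plasma cells carried 50269 and 36246 CPM of their 7 markers. Clec16a was higher by 0.62 (-0.10 to 1.49) in Cfp-positive myeloid cells (5.6% of genes higher, 5.89% lower), Cd226 by 0.97 (-0.05 to 2.29) in cDC1 (8.03% higher, 7.0% lower) and Cd101 by 1.21 (-0.05 to 3.102) in migratory DCs (12.5% higher, 7.9% lower). Each of these 3 intervals takes in 0.

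**Figure D4:**
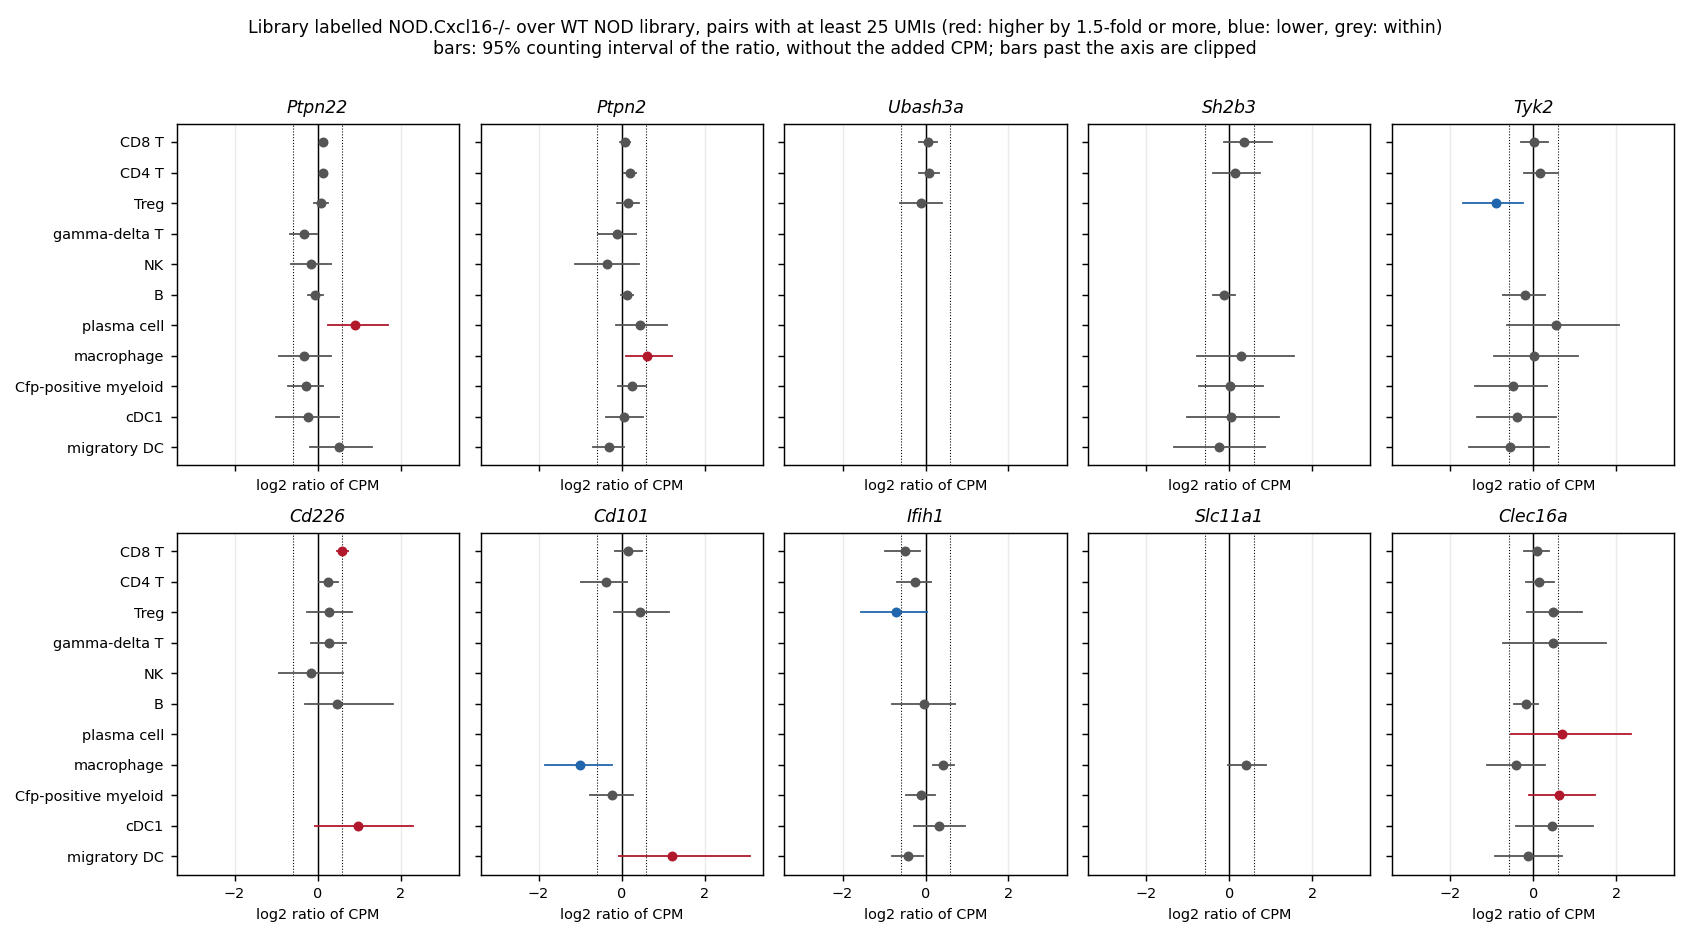
Log2 ratio of CPM (horizontal axis), positive where the library labelled NOD.Cxcl16-/- was higher, for each of the 10 genes in each class (vertical axis) with at least 25 UMIs over both libraries. Points are ratios with 1 CPM added, bars the 95% counting interval, dotted lines 1.5-fold either way, red higher, blue lower and grey within, and 63 of the 73 points are grey.

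Across the 22 profiles, 11 classes in 2 libraries, 4 of the genes had similar profiles. The log2 levels of Ptpn22 and Ubash3a correlated at r = 0.95, Ptpn22 and Cd226 at 0.85, Ptpn2 and Cd226 at 0.81 and Ptpn22 and Ptpn2 at 0.74, while Slc11a1 and Ifih1 correlated at 0.65. The lowest value was -0.43, for Ptpn2 and Slc11a1. These are descriptions without a test, since the points share libraries and total counts. Between libraries, over 11 classes, r ran from 0.74 for Tyk2 to 0.99 for Ubash3a, with 0.79 for Clec16a.

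For each gene the 3 genes with the most similar profile were sought among 10785. Prkcq, Gm2682 and Cd27 were nearest to Ptpn22 (r = 0.98 each), and Prkcq is itself among the other diabetes-linked genes listed below. Trbc2, Trbc1 and Gprin3 were nearest to Ubash3a (0.99, 0.98 and 0.98), and the first pair are markers of the T-cell gates. Ifit2, an interferon-induced gene, was nearest to Ifih1 at 0.96, ahead of Gm17056 and Fhod1 at 0.94. Sod2, Acod1 and Tnfsf13 were nearest to Slc11a1 (0.91, 0.91 and 0.90). Slc25a24, Hgsnat and Btbd11 were nearest to Cd226 (0.94, 0.92 and 0.91), Kdm2b, Prrc2b and Stk4 to Ptpn2 (0.93 each), Cd2ap, Cystm1 and Baz2b to Sh2b3 (0.91, 0.91 and 0.90), and Fam110a, Eva1b and Gm4951 to Cd101 (0.89, 0.89 and 0.88). Clec16a had Mapkap1 at 0.91 and then Atp2b1 and Wsb1 at 0.84 to 0.85. The likeness was weakest for Tyk2, at 0.76 for Ust, 0.74 for Zfp787 and 0.73 for Arsb, a gene with 468 and 525 UMIs over the described classes.

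Of 20 further genes at loci linked to type 1 diabetes, 15 were highest in T and NK cells of both libraries, 2 in myeloid cells and 1 in B-lineage cells. The shares of all genes were 49.8%, 22.3% and 8.9%. Il2ra, Ctla4, Il10 and Ikzf4 peaked in Tregs, with Ctla4 at 1484 and 1549 CPM. Bach2 peaked in B cells, at 536 and 465 CPM, and Ctsh in macrophages, at 929 and 928 CPM. Across classes 20 of 166 pairs were higher by 1.5-fold or more and 9 lower, or 12.05% and 5.42%, beside 9.07% and 4.88% of all pairs.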

How the data were processed

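The authors deposited 1 filtered matrix of UMI counts per library, made with Cell Ranger 7.0.1 on mm10 per the submitters' processing notes. The labels name 10x 3' chemistry. Whether counting used intronic reads or strand is not given in the sources used here. Barcodes with under 500 genes (1582 and 311) or over 10% mitochondrial UMIs (25 and 29) were removed, then the top-scoring simulated-doublet neighbours (1547 and 930, 11.2% and 8.81%). This kept 56728471 and 74915446 UMIs. Classes came from gates on at least 2 markers of a lineage and fewer than 2 of another. The marker genes were listed first, and the gate thresholds were finalised after seeing the data. The CD4 T gate can hold Foxp3-expressing cells without a Foxp3 UMI. Classes under 50 cells in either library were not described (ILC2, cDC2, classical monocyte and plasmacytoid dendritic cell). The genes, gene lists and motifs were chosen with earlier results of these data known.

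Counts were summed per class. CPM has an exact Poisson interval, a share of cells an exact Clopper-Pearson interval and a ratio an exact conditional interval (without the added CPM), all at 95% and for counting error only. A count of 0 is given with the level that 3 counts would have. The libraries differ in depth per cell, so shares were also taken at 2000 UMIs. The text names the 10 genes in every described class and the 3 genes most like each. Partner genes were named for a ratio only from the RNA-sensing list. Those of other lists that passed 1.5-fold in the direction of the gene they accompany, as in plasma cells, are not named. Partner genes named for their level were chosen after their values were seen. All 10 genes matched GENCODE M21, which supplied positions, as did 32158 of 32285 features. Promoters came from RefSeq. Those of Ptpn2 and Cd226 were not used here. One split of the T-cell gates is not reported here. The ratio and its interval were tested on simulated data. Python 3.11.15, numpy 2.4.6, scipy 1.17.1, pandas 2.3.3, scikit-learn 1.9.0 and leidenalg 0.10.2 were used.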

Additional observations from a re-analysis of the deposited data

Results flagged for a closer look

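For 3 genes the log2 ratio between libraries had opposite signs in different classes, with counting intervals that left out 0 or a ratio past 1.5-fold. In each case the difference between classes was not tested. For Ptpn22 the ratio was 0.13 in CD8 T cells, 0.14 in CD4 T cells and 0.91 in plasma cells, and -0.33 in gamma-delta T cells, where it was 0.20 with classes from clusters. For Ifih1 it was 0.43 in macrophages, and -0.49 in CD8 T cells and -0.42 in migratory DCs. In migratory DCs the sign held in 8 of 11 alternatives, and the ratio was 0.55 with 3 lineage markers and 0.59 without cells with a Mki67 or Top2a UMI, while in macrophages it was -0.10 with classes from clusters. For Cd101 it was -0.99 in macrophages and 1.21 in migratory DCs, the latter with an interval that takes in 0.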

How the results depend on the processing

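No paired analysis was possible because each group had 1 library, and for the same reason no replicate could be left out. The 2 alternatives that drop cells with a Mki67 or Top2a UMI or cells under 2000 UMIs were chosen after seeing the data. The 7 pairs of gene and class that were higher by 1.5-fold or more became 4 when ratios were centred on the median of all genes. The share of all pairs of gene and class was then 7.23%. With 5 CPM added they were 3, beside 6.03% of all pairs. With no filter on low counts, where all 110 pairs were tested, they were 13, beside 7.53%. Without cells with a Mki67 or Top2a UMI they were 4, beside 7.11%. The 3 lower pairs became 5 with 3 lineage markers (4.89% of all pairs) and 6 with no marker of another lineage (5.36%). They became 7 with the mean of cell CPM (7.4%) and 6 with no filter on low counts (5.76%). The number of genes with the same leading class in both libraries fell from 8 to 5 with the mean of cell CPM. Of 334 alternative log2 ratios for 28 pairs, 20 had the opposite sign, spread over 13 pairs. Among pairs past 1.5-fold there were 3 such values: Ptpn2 in macrophages to -0.15 without cells with a Mki67 or Top2a UMI, and Clec16a in plasma cells to -0.23 with no marker of another lineage and -0.78 without cells with a Mki67 or Top2a UMI. The cause was not tested. The other 17 belong to pairs within 1.5-fold. Slc11a1, Ifih1 and Sh2b3 had the same leading class under all 10 alternatives in both libraries. That of Ptpn22 in WT NOD was NK under 4 of 10 and CD8 T or CD4 T under the rest. Clusters gave no migratory DC class.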
